A study of Mus musculus with 6 samples.

Results

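Solute carriers are membrane proteins that move nutrients, ions, metals and vitamins across the cell surface and the membranes of organelles. They work as facilitators that follow a gradient, or as cotransporters and exchangers that are coupled to the gradients of sodium, chloride or protons. Proliferating T cells depend on them for amino acids, glucose, nucleosides and trace metals, and the leucine carrier Slc7a5 with its partner chain Slc3a2 is known for feeding the mTORC1 growth pathway. The genes described here are the rows of the deposited table whose symbol begins with Slc and a digit. They leave out the mitochondrial SLC25 family (38 rows) and Slc2a1, Slc2a3, Slc4a1, Slc7a11, Slc16a1 and Slc16a3 (6 rows). This gave 146 of 13185 gene rows, of which 140 encode a carrier and 6 only carry an Slc-derived symbol.

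Levels were measured in mouse Notch1-driven T-ALL cells, a model of T-cell acute lymphoblastic leukaemia, by QuantSeq, a 3' mRNA sequencing method that reads transcripts at their polyadenylated ends. Panobinostat, an inhibitor of histone deacetylases, was given at 25 nM for 2 h to the cells of 3 libraries, and the cells of the other 3 libraries were left untreated. Both groups grew on plate-bound anti-CD3 at 2.5 ug/mL with IL-2 at 100 U/mL, so the untreated cells were stimulated as well. The sample titles give all libraries of both groups the same number, 1, and nothing in the labels ties them to separate cultures or mice, so p-values measure only the spread between these libraries, which may be technical. Values are log2 CPM (read counts scaled to a common library size, on a log2 scale). The depth was estimated, from how far apart low values lie, at 6030000 to 7760000 reads per library. On the first principal component the treated libraries lay at 35.9, 35.4 and 43.2 and untreated libraries 1 to 3 at -25.7, -48.0 and -41.0, so that untreated library 1 stood nearest to the treated ones. The defining T cell markers were present, with mean levels of 5.11 to 8.83 log2 CPM over 10 genes. Markers of other cells were present too: myeloid S100a8 stood at 9.45 to 9.58 log2 CPM in treated and 9.77 to 9.99 log2 CPM in untreated libraries. The summed level of 9 myeloid markers was 1063 to 1163 CPM in treated and 1307 to 1483 CPM in untreated libraries, and that of 7 B cell markers was 68.3 to 77.0 CPM in treated and 86.5 to 87.5 CPM in untreated libraries. The 7 erythroid markers summed to 6306 to 6708 CPM in treated and 6708 to 7964 CPM in untreated libraries, and the 10 T cell markers to 1415 to 1456 CPM in treated and 2025 to 2113 CPM in untreated libraries. The erythroid markers did not all move the same way (limma, adjusted p below 0.05). Hbb-bs rose (log2 fold change 0.35), and 4 fell: Hba-a1 (-0.37), Hba-a2 (-0.40), Alas2 (-0.41) and Klf1 (-1.31). The part of these shifts in the carrier results was not tested. In bulk samples, fewer cells of a type and less RNA per cell cannot be told apart.

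More solute carriers rose than fell after 2 h of panobinostat. Of 135 members tested (mean level of at least 0 log2 CPM), 38 rose and 17 fell, against 2416 rises (19.2% of genes) and 2390 falls (19.0%) among all 12554 tested genes (limma, Benjamini-Hochberg adjusted p below 0.05). As shares of the members tested, 28.1% rose and 12.6% fell. Together 55 members changed, which is 40.7% against 38.3% of all genes, so the share of carriers that moved was near that of the table. A change of at least 2-fold was found for 15 rises (11.1% of members, against 5.12% of all genes) and 7 falls (5.19%, against 5.15% of all genes). The median log2 fold change of the members was 0.182, against -0.00524 for all tested genes. Treated and untreated values were fully separate in 79 members (58.5%), against 51.4% of all tested genes. The summed level of the tested members was 3470, 3641 and 3508 CPM in treated libraries 1 to 3, and 3233, 3177 and 3260 CPM in untreated libraries 1 to 3. Without untreated library 1, 43 members rose and 18 fell. With each library left out in turn, members had 27 to 43 rises and 11 to 18 falls. All tested genes had 1587 to 2664 rises and 1636 to 2562 falls in the same fits. The members' falls numbered 11 without untreated library 2 and 11 without untreated library 3.

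**Figure D1:**
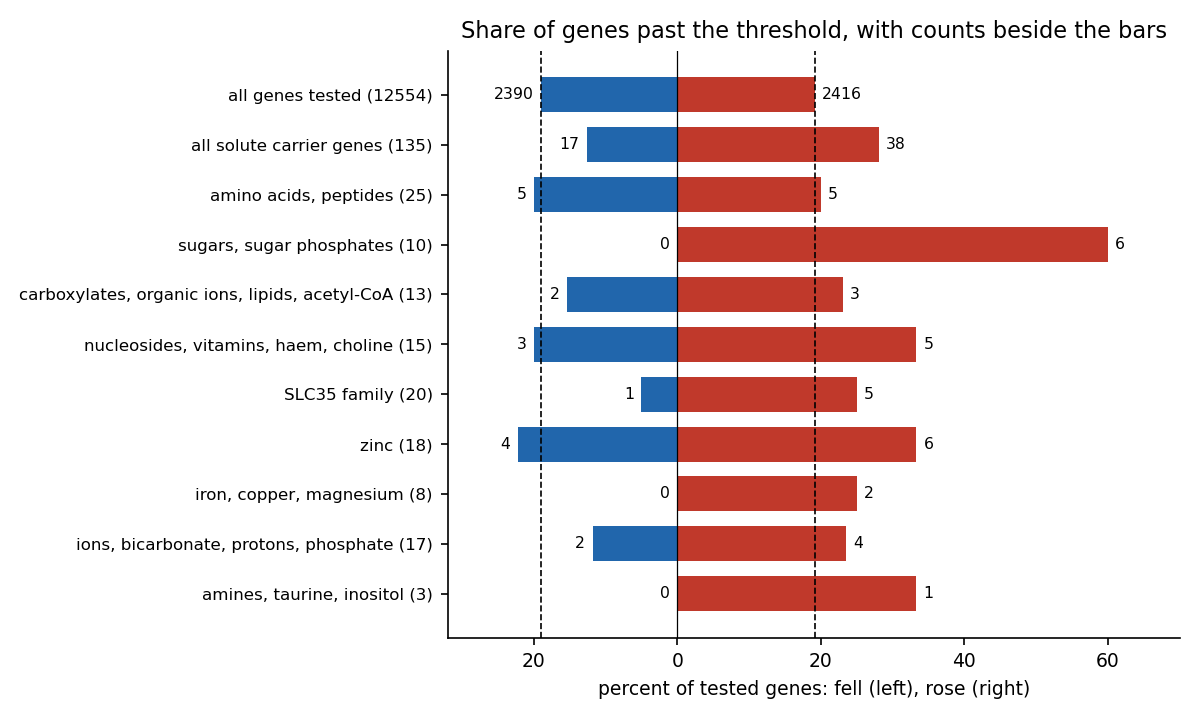
Horizontal bars give the percent of tested genes that rose (right) or fell (left) in panobinostat-treated against untreated cells, for all tested genes, all solute carrier genes and each substrate group, with the number tested in brackets and the counts beside the bars. Dashed lines mark the shares of all tested genes, 19.2% for rises and 19.0% for falls. The sugar carriers reach the right-hand end, with 6 rises of 10 tested.

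Carriers of sugars and sugar phosphates gave 6 rises and 0 falls of 10 tested, whereas 19.2% of all tested genes rose and 19.0% fell. The group median log2 fold change was 0.517. Slc45a4, of a family of proton-coupled sugar carriers, measured 3.96, 4.27 and 4.25 log2 CPM in panobinostat-treated cells and 2.77, 2.36 and 1.77 log2 CPM in untreated cells. All treated libraries lay above all untreated libraries (log2 fold change 1.86 ± 0.26, adjusted p = 0.00173 by limma; fold changes are given ± SE throughout). Its relative Slc45a3 gave 4.34, 4.8 and 4.65 log2 CPM with panobinostat, against 3.54, 3.04 and 2.83 log2 CPM in untreated cells, again without overlap (log2 fold change 1.46 ± 0.21, adjusted p = 0.00206 by limma). An unnamed predicted gene lies on the same strand over the last 500 bases of Slc45a3, so its reads may be shared. Slc2a4, which encodes the insulin-regulated glucose carrier GLUT4, was low, with 2.53, 2.83 and 2.69 log2 CPM in treated libraries, against 1.57, 1.25 and 0.93 log2 CPM in untreated libraries (log2 fold change 1.43 ± 0.24, adjusted p = 0.00342 by limma). The treated libraries of Slc2a4 stood more than 2-fold above the untreated ones on average, although few reads lay behind each value, the lowest being 13. Slc2a8, an intracellular hexose carrier, rose by 0.85 ± 0.28 on the log2 scale. The glucose 6-phosphate exchanger gene Slc37a1 rose by 0.69 ± 0.19 and the lysosomal carrier gene Slc37a3 by 0.35 ± 0.12. Members that did not pass were the microsomal glucose 6-phosphate translocase gene Slc37a4 (-0.45 ± 0.16, adjusted p = 0.0566), Slc37a2 (-0.49 ± 0.32), the urate carrier gene Slc2a9 (0.037 ± 0.22) and Slc50a1 (-0.14 ± 0.17). Slc37a4 passed as a fall with array weights (adjusted p = 0.0377), with a robust trend (0.0452) and with a filter at 2 log2 CPM (0.0489), while Slc37a3 lost its call with array weights (0.0706). The 3 smallest rises were fragile: that of Slc2a8 was lost without panobinostat libraries 1 or 3 or untreated libraries 2 or 3 (0.64 to 0.94), that of Slc37a1 without panobinostat libraries 1 or 3 or untreated libraries 2 or 3 (0.60 to 0.72) and that of Slc37a3 without panobinostat libraries 1 or 3 or untreated libraries 1, 2 or 3 (0.28 to 0.42). The count of calls in the group was 3 without any of panobinostat libraries 1 and 3 and untreated libraries 2 and 3.

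**Figure D2:**
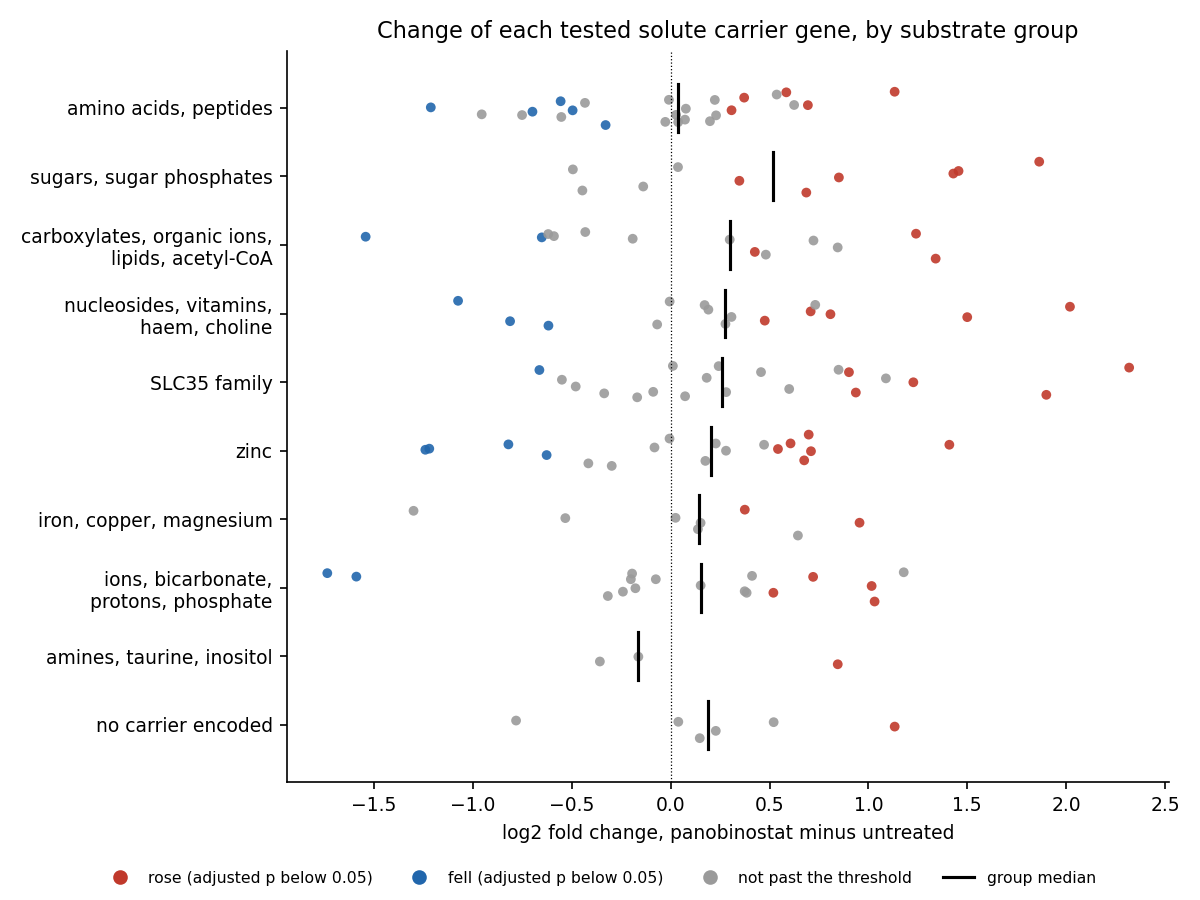
Each point is the log2 fold change (panobinostat minus untreated, horizontal axis) of 1 tested solute carrier gene, set out by substrate group (vertical axis, points spread at random within a row), with colour for the call and a black bar for the group median. The sugar group has the highest median, 0.517, and the amino acid group lies around 0.0381.

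The SLC35 family includes carriers that bring nucleotide sugars and related donors into the Golgi and endoplasmic reticulum, where glycans are built. Not every member was assigned to these membranes here, and Slc35e2, Slc35f5 and Slc35g1 were not. Of 20 tested in the family, 5 rose (25.0%, against 19.2% of all tested genes) and 1 fell (5.0%, against 19.0%). The median log2 fold change was 0.262. Slc35a2, the carrier of UDP-galactose, had the largest rise of any tested member, with 4.76, 5.07 and 5.01 log2 CPM in panobinostat-treated cells and 3.18, 2.77 and 1.94 log2 CPM in untreated cells. The lowest treated library stood above the highest untreated one, and the mean difference was 4.99-fold (log2 fold change 2.32 ± 0.29, adjusted p = 0.00125 by limma). Its gene lies on chromosome X, 7884028 to 7894492 (mm10, GENCODE release M21). Slc35c1, the GDP-fucose carrier, measured 5.50, 5.36 and 5.58 log2 CPM with panobinostat, against 4.82, 4.46 and 4.46 log2 CPM in untreated cells (log2 fold change 0.90 ± 0.13, adjusted p = 0.00204 by limma). Slc35g1, at 1.23 ± 0.21, and Slc35e2, at 0.94 ± 0.16, rose too, and Slc35e2 overlaps predicted genes on the opposite strand at its end. Slc35f5 was low in untreated cells and rose, with 1.84, 2.16 and 1.75 log2 CPM in treated libraries, against -0.17, 0.21 and 0.017 log2 CPM in untreated libraries (log2 fold change 1.9 ± 0.28, adjusted p = 0.00226 by limma), and the lowest of these values rested on 7 reads. The fall in this family was that of Slc35a4, with 5.54, 5.60 and 5.43 log2 CPM in panobinostat-treated cells and 5.98, 6.49 and 6.09 log2 CPM in untreated cells (log2 fold change -0.66 ± 0.14, adjusted p = 0.00827 by limma). With array weights, which let libraries count unequally, 12 members of the family passed, and Slc35a1 and Slc35d1 were then falls too. Values that did not pass in the reported fit were those of the CMP-sialic acid carrier gene Slc35a1 (-0.55 ± 0.20, adjusted p = 0.0613), Slc35d1, a carrier of the endoplasmic reticulum (-0.17 ± 0.074), the UDP-N-acetylglucosamine carrier gene Slc35a3 (0.28 ± 0.11) and the sulphate donor carrier gene Slc35b2 (0.18 ± 0.16). In 12 of the 20 the groups were fully separate, near the 51.4% of all tested genes, and 6 of these 12 did not pass the test.

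RefSeq promoter windows (GRCm38.p6) were matched by symbol for 107 of the 146 members, in 145 windows. The 250 bases before the start are shown for 5 carriers: the largest rise and a large fall (Slc35a2, Slc9a8), the zinc exporter gene Slc30a1, which is known as a target of the metal-sensing factor MTF1, and 2 members that rose and hold the E-box letters (Slc33a1, Slc29a1). Capitals mark TGCNCNC, a loose form of the metal response element core, on either strand in the first 3, and CACGTG in the last 2. The core itself takes A or G at the first N, and the Slc9a8 match has C there.
Slc35a2, chrX:7883994-7884243, plus strand: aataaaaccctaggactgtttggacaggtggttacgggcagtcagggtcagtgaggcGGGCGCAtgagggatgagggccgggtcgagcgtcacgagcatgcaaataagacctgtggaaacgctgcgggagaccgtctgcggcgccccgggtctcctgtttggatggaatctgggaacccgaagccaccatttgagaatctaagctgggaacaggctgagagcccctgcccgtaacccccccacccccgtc
Slc9a8, chr2:167421460-167421709, plus strand: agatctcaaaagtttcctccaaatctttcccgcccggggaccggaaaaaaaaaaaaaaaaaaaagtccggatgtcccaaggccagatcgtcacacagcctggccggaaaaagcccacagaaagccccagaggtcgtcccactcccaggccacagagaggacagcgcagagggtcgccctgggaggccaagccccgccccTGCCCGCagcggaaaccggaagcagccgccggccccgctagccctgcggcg
Slc30a1, chr1:191906531-191906780, plus strand: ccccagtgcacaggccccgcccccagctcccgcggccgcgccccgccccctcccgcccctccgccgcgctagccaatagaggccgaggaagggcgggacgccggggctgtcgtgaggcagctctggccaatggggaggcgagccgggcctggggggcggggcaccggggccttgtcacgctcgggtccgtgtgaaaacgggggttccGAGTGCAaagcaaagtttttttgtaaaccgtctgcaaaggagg
Slc33a1, chr3:63964734-63964983, minus strand: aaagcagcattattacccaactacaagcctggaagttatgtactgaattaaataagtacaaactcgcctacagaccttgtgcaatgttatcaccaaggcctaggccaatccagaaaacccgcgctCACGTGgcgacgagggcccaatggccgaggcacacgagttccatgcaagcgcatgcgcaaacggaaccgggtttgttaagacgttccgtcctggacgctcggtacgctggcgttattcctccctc
Slc29a1, chr17:45595247-45595496, minus strand: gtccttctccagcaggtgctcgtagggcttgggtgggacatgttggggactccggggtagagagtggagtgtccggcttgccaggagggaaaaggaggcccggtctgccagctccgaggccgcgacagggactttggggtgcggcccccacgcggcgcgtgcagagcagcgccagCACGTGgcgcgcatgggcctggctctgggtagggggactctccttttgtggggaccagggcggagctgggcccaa

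Windows of 1 gene can overlap, and 8 of the 38 windows of members that rose belong to Slc29a1, so genes were counted once, with a match in any of their windows of 300 bases (250 before the start and 50 after it), both strands searched. CACGTG was found in 5 of 25 members that rose, 2 of 12 that fell, 11 of 65 that were not called and 12.0% of the 8563 tested genes with a window. The loose pattern TGCNCNC was found in 16 of 25 members that rose, 8 of 12 that fell and 63.9% of the tested genes. CCAAT was found in 12 of 25 members that rose, 7 of 12 that fell and 43.5% of the tested genes. The amino acid response element core TGATGCAA was found in 0 members that rose or fell, in 3 of the 65 that were not called, namely Slc1a4, Slc50a1 and Slc7a7, and in 0.712% of the tested genes. These are matches of letters, not sites shown to be bound.

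The zinc carriers fall into exporters that move zinc out of the cytosol (Slc30) and importers that bring it in (Slc39). Over both families 6 rose (33.3%, against 19.2% of all tested genes) and 4 fell (22.2%, against 19.0%) of 18 tested. Among exporters 4 rose and 0 fell of 6, with a median log2 fold change of 0.575. Among importers 2 rose and 4 fell of 12, with a median of -0.190, and the difference between the families was not tested. Slc30a4, of endosomal and lysosomal membranes, measured 4.5, 4.88 and 4.83 log2 CPM with panobinostat, against 4.24, 3.80 and 4.06 log2 CPM in untreated cells (log2 fold change 0.70 ± 0.16, adjusted p = 0.0115 by limma). Slc30a5 and Slc30a6, whose proteins pair in the early secretory pathway, rose by 0.61 ± 0.20 and 0.68 ± 0.21, and the Golgi exporter gene Slc30a7 rose by 0.54 ± 0.16. The values of the surface exporter gene Slc30a1 overlapped, with 4.66, 4.73 and 4.66 log2 CPM in treated libraries, against 4.53, 4.66 and 4.88 log2 CPM in untreated libraries (log2 fold change -0.0056 ± 0.12, adjusted p = 0.974 by limma).

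Slc39a14, which carries zinc, iron and manganese, rose the most among importers, with 2.80, 3.09 and 3.23 log2 CPM in panobinostat-treated cells and 1.49, 1.41 and 1.99 log2 CPM in untreated cells and no overlap (log2 fold change 1.41 ± 0.23, adjusted p = 0.00332 by limma). Slc39a9 rose by 0.71 ± 0.15. Slc39a10, a surface importer needed by lymphocytes, fell, with 2.44, 2.99 and 2.85 log2 CPM with panobinostat, against 3.53, 3.62 and 3.59 log2 CPM in untreated cells (log2 fold change -0.82 ± 0.18, adjusted p = 0.00968 by limma). Slc39a11 fell by 0.63 on the log2 scale (SE 0.17), and the lowly expressed importer genes Slc39a3 and Slc39a4 fell, at -1.24 ± 0.31 and -1.22 ± 0.39. The Slc39a1 values were 7.79, 8.04 and 7.13 log2 CPM in treated libraries, against 7.90, 7.93 and 8.03 log2 CPM in untreated libraries, and panobinostat library 3 stood below the other 5 libraries (log2 fold change -0.30 ± 0.21, adjusted p = 0.286 by limma). Of the genes that buffer or sense metals, the metallothionein gene Mt2 (0.48 ± 0.11) and the zinc-sensing factor gene Mtf1 (0.56 ± 0.13) rose, whereas Mt1 (-0.24 ± 0.085, adjusted p = 0.0575) did not pass. Over that list 4 rose (44.4%, against 19.2% of all tested genes) and 2 fell (22.2%, against 19.0%) of 9 tested. Several zinc calls were lost when a library was left out: Slc30a5 was lost without panobinostat libraries 2 or 3 or untreated libraries 1 or 3 (0.44 to 0.63), Slc30a6 without panobinostat libraries 2 or 3 or untreated libraries 2 or 3 (0.50 to 0.63), Slc30a7 without panobinostat libraries 1 or 2 or untreated libraries 1, 2 or 3 (0.47 to 0.60), Slc39a11 without panobinostat libraries 1, 2 or 3 or untreated library 3 (-0.67 to -0.61), Slc39a4 without panobinostat libraries 1 or 3 or untreated libraries 1, 2 or 3 (-1.30 to -0.87) and Slc39a3 without untreated library 2 (-1.02). The group's 10 calls became 6 without panobinostat library 2, 6 without panobinostat library 3 and 5 without untreated library 3.

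**Figure D3:**
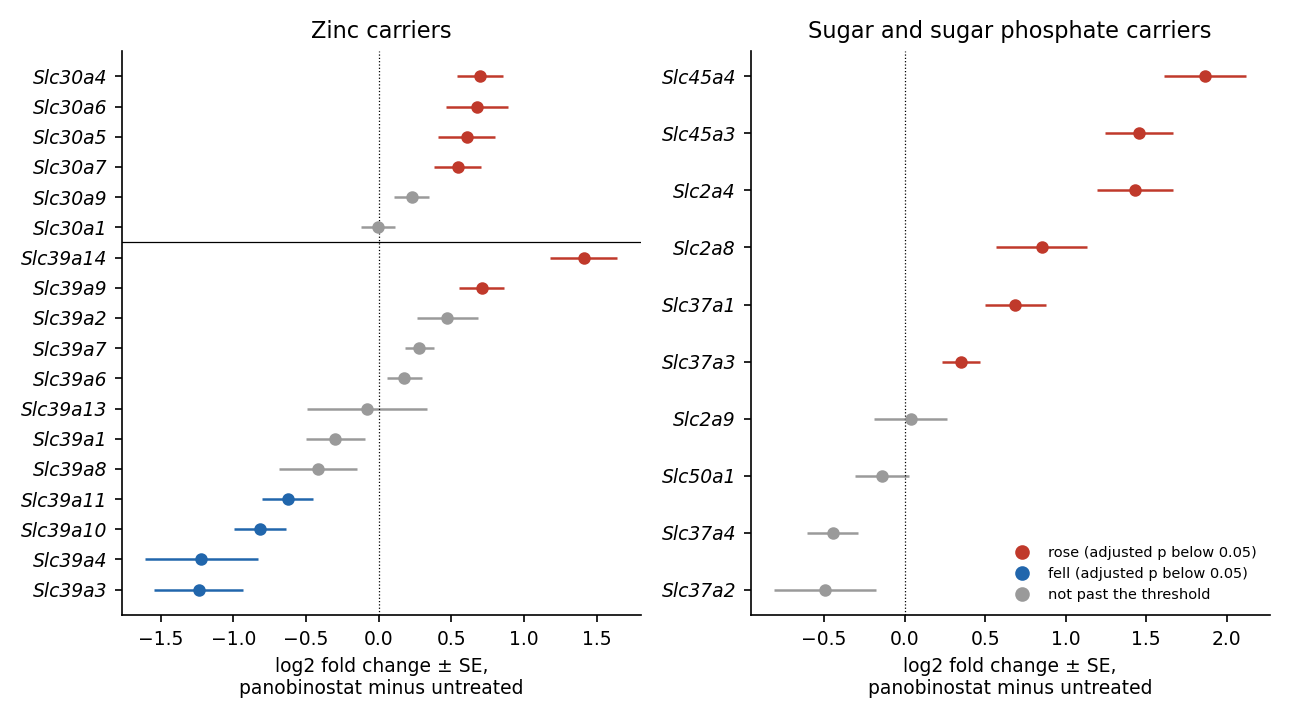
Points give the log2 fold change (panobinostat minus untreated) and bars its SE for each tested zinc carrier gene (left, Slc30 exporters above the line and Slc39 importers below it) and sugar carrier gene (right), coloured by call. Of the exporters, 4 of 6 rose, and Slc30a1 sits at -0.0056, while the importers run from -1.24 to 1.41.

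Among iron, copper and magnesium carriers 2 rose (25.0%, against 19.2% of all tested genes) and 0 fell (against 19.0%) of 8 tested. Slc31a1, the high-affinity copper importer CTR1, measured 5.73, 5.73 and 5.92 log2 CPM in panobinostat-treated cells and 4.67, 4.83 and 5.01 log2 CPM in untreated cells (log2 fold change 0.96 ± 0.12, adjusted p = 0.0011 by limma). The end of Slc31a1 overlaps Cdc26 on the opposite strand. Slc11a2, the iron importer DMT1, rose slightly, with 7.0, 7.18 and 7.09 log2 CPM with panobinostat, against 6.74, 6.68 and 6.73 log2 CPM in untreated cells (log2 fold change 0.38 ± 0.078, adjusted p = 0.00792 by limma). The iron exporter gene Slc40a1 lay below in all treated libraries, with 2.49, 2.72 and 3.0 log2 CPM in treated libraries, against 3.28, 3.13 and 3.40 log2 CPM in untreated libraries, but did not pass (log2 fold change -0.53 ± 0.18, adjusted p = 0.0524 by limma). The magnesium carrier gene Slc41a2 stood at -1.30 ± 0.59 with as few as 3 reads in a library. Slc11a1, a carrier of phagocytes, was at the low levels of 0.27, 0.51 and 0.71 log2 CPM in panobinostat-treated cells and 0.38, 0.38 and 0.65 log2 CPM in untreated cells. Of the iron handling genes in the metal list, Aco1 (1.04 ± 0.21) and the ferritin gene Fth1 (0.34 ± 0.071) rose, and Ftl1 (-0.32 ± 0.085) and the haem oxygenase gene Hmox1 (-0.92 ± 0.21) fell. Without panobinostat library 3 the group had 4 calls in place of 2. The added calls were falls of Slc40a1 (-0.664, adjusted p = 0.0453 by limma) and Slc41a2 (-1.85, adjusted p = 0.0441 by limma). With no other library left out did Slc40a1 pass. With all libraries it passed as a fall with a filter at 2 log2 CPM (0.0467), without a trend (0.0471), with a robust trend (0.0498) and with array weights (0.0238).

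Amino acid and peptide carriers were evenly divided, with 5 rises and 5 falls of 25 tested and a median log2 fold change of 0.0381. Both shares were near those of all tested genes, of which 19.2% rose and 19.0% fell. Slc7a5, the light chain of the leucine carrier LAT1, measured 5.61, 5.68 and 5.96 log2 CPM with panobinostat, against 4.76, 4.59 and 4.5 log2 CPM in untreated cells, and all treated libraries lay above all untreated ones (log2 fold change 1.13 ± 0.13, adjusted p = 0.000803 by limma). A predicted gene overlaps its end on the opposite strand. The heavy chain gene Slc3a2, whose protein takes Slc7a5 to the surface, measured 5.67, 5.70 and 5.89 log2 CPM in treated libraries, against 5.79, 5.30 and 5.47 log2 CPM in untreated libraries with overlap between the groups (log2 fold change 0.23 ± 0.14, adjusted p = 0.223 by limma). Without untreated library 1 Slc3a2 passed as a rise (0.364, adjusted p = 0.0322 by limma), but with no other library left out. Slc38a2, a sodium-coupled carrier of glutamine and alanine, fell, with 6.11, 6.24 and 6.02 log2 CPM in panobinostat-treated cells and 6.86, 6.76 and 6.84 log2 CPM in untreated cells (log2 fold change -0.70 ± 0.085, adjusted p = 0.00109 by limma). The related gene Slc38a1 stood at 0.22 ± 0.13 (adjusted p = 0.221), while untreated library 1 lay at 7.45 log2 CPM, above all treated libraries. Without that library Slc38a1 passed as a rise (0.381, adjusted p = 0.00634 by limma), but with no other library left out.

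Slc7a1, the arginine and lysine carrier CAT1, fell by a small amount, with 6.22, 6.26 and 6.21 log2 CPM with panobinostat, against 6.51, 6.58 and 6.59 log2 CPM in untreated cells (log2 fold change -0.33 ± 0.073, adjusted p = 0.0102 by limma), and the treated and untreated values were well apart. Slc38a3 was low and fell, with 0.93, 1.41 and 1.75 log2 CPM in treated libraries, against 2.59, 2.60 and 2.54 log2 CPM in untreated libraries (log2 fold change -1.21 ± 0.25, adjusted p = 0.00833 by limma). The neutral amino acid carrier gene Slc43a2 changed by -0.56 ± 0.17 and Slc38a5 by -0.50 ± 0.16. The glutamine carrier gene Slc1a5 rose by 0.31 ± 0.098, the aromatic amino acid carrier gene Slc16a10 by 0.69 ± 0.16, and 2 lysosomal genes rose as well. These were Slc38a9, whose protein senses arginine for mTORC1 (0.59 ± 0.13), and Slc15a4, a carrier of histidine and peptides (0.37 ± 0.093). Log2 fold changes that did not pass included Slc1a4 (-0.027 ± 0.30) and Slc43a1 (-0.43 ± 0.16, adjusted p = 0.0669). Calls that ended when a library was left out were Slc1a5 without panobinostat libraries 1, 2 or 3 or untreated libraries 1 or 2 (0.23 to 0.35), Slc38a5 without panobinostat libraries 1, 2 or 3 or untreated libraries 2 or 3 (-0.54 to -0.36), Slc43a2 without panobinostat libraries 2 or 3 or untreated libraries 2 or 3 (-0.57 to -0.42), Slc15a4 without panobinostat libraries 1 or 2 or untreated library 3 (0.31 to 0.37) and Slc16a10 without panobinostat library 2 (0.61). Without panobinostat library 2 the group had 5 calls in place of 10.

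In a list of genes that sense or respond to amino acids, 6 rose and 2 fell of 17 tested. As shares, 35.3% rose and 11.8% fell, against 19.2% and 19.0% of all tested genes. Of the 4 genes for the Rag GTPases, which tether mTORC1 to the lysosome, 3 rose. Rragd measured 3.27, 3.40 and 3.35 log2 CPM in panobinostat-treated cells and 1.18, 1.15 and 1.15 log2 CPM in untreated cells (log2 fold change 2.18 ± 0.17, adjusted p = 0.000303 by limma), Rraga rose by 1.17 ± 0.14 and Rragc by 0.85 ± 0.11, and Rragb stood at -0.28 ± 0.49 (adjusted p = 0.684). Among the genes for the complex that holds the Rag proteins at the lysosome, Lamtor3 rose (1.05 ± 0.15), Lamtor1 fell (-0.67 ± 0.11) and the 3 others tested did not pass. The stress factor gene Atf4, which drives several amino acid carrier genes, fell (-0.47 ± 0.12), and its target Asns stood at -0.34 ± 0.26 (adjusted p = 0.346). Of other stress genes in the list, Sesn2 rose (0.64 ± 0.14), and Ddit3 (-0.059 ± 0.11) and Ddit4 (0.20 ± 0.17) did not pass. In a list of proteins that partner or regulate carriers, 2 rose (14.3%) and 0 fell of 14 tested. The phosphate exporter gene Xpr1 (0.50 ± 0.094) and Cab39 (0.45 ± 0.093) rose, and Bsg, the chaperone of monocarboxylate carriers, stood at -0.17 ± 0.075 (adjusted p = 0.103).

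Of the nucleoside, nucleobase, vitamin, haem and choline carriers 5 rose (33.3%, against 19.2% of all tested genes) and 3 fell of 15 tested. The share that fell was near the 19.0% of all tested genes. Slc28a2, a sodium-coupled carrier that prefers purine nucleosides, measured 3.87, 4.12 and 4.19 log2 CPM with panobinostat, against 3.02, 1.41 and 1.70 log2 CPM in untreated cells. Untreated library 1 lay above the other 2 untreated libraries and below all treated ones (log2 fold change 2.02 ± 0.39, adjusted p = 0.00592 by limma), and the log2 fold change was 2.51 without it. The facilitators of the Slc29 family divided: Slc29a1, the surface carrier ENT1, rose, with 6.98, 6.95 and 7.14 log2 CPM in treated libraries, against 6.64, 6.32 and 6.67 log2 CPM in untreated libraries (log2 fold change 0.48 ± 0.11, adjusted p = 0.0139 by limma), while the lysosomal carrier gene Slc29a3 fell, with 4.68, 4.68 and 4.56 log2 CPM in panobinostat-treated cells and 5.10, 5.77 and 5.48 log2 CPM in untreated cells (log2 fold change -0.81 ± 0.17, adjusted p = 0.00745 by limma). Slc29a2 was low and fell, at -1.07 ± 0.31. Slc23a4, whose product carries nucleobases in the rat, fell, with 4.69, 4.48 and 4.61 log2 CPM with panobinostat, against 5.30, 5.06 and 5.29 log2 CPM in untreated cells (log2 fold change -0.62 ± 0.11, adjusted p = 0.00496 by limma). The purine nucleobase carrier gene Slc43a3 rose by 0.71 ± 0.18, the vitamin C carrier gene Slc23a2 by 0.81 ± 0.20 and the thiamine carrier gene Slc19a2 by 1.5 ± 0.36. The folate carrier gene Slc19a1 (-0.005 ± 0.13), the choline carrier-like gene Slc44a2 (0.19 ± 0.14) and the haem carrier gene Slc48a1 (-0.068 ± 0.11) did not pass. Calls were lost for Slc29a1 without panobinostat library 3 (0.42), Slc19a2 without panobinostat library 3 (1.26), Slc29a2 without panobinostat libraries 2 or 3 or untreated libraries 2 or 3 (-1.11 to -0.94), Slc43a3 without panobinostat libraries 2 or 3 or untreated library 3 (0.55 to 0.71) and Slc23a2 without panobinostat libraries 1 or 2 or untreated library 3 (0.75 to 0.78). The group's 8 calls became 4 without panobinostat library 3 and 5 without untreated library 3.

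Inorganic ion, bicarbonate, proton and phosphate carriers gave 4 rises and 2 falls of 17 tested. As shares, 23.5% rose and 11.8% fell, against 19.2% and 19.0% of all tested genes. Slc9a8, a sodium and proton exchanger of the Golgi and endosomes, had the largest fall among members at 2 log2 CPM or more, with 3.93, 3.70 and 3.59 log2 CPM in treated libraries, against 5.26, 5.37 and 5.36 log2 CPM in untreated libraries (log2 fold change -1.59 ± 0.12, adjusted p = 0.000258 by limma). All treated values lay more than 1 log2 unit below all untreated ones, and the gene is on chromosome 2, 167421712 to 167477000 (mm10, GENCODE release M21). Slc26a2, a sulphate carrier, measured 6.91, 7.04 and 6.98 log2 CPM in panobinostat-treated cells and 5.89, 6.01 and 5.98 log2 CPM in untreated cells (log2 fold change 1.02 ± 0.079, adjusted p = 0.000266 by limma), and the lysosomal anion carrier gene Slc26a11 gave 3.36, 3.24 and 3.44 log2 CPM with panobinostat, against 2.04, 2.41 and 2.50 log2 CPM in untreated cells (log2 fold change 1.03 ± 0.18, adjusted p = 0.00429 by limma). The third tested member of that family, Slc26a6, was low in treated cells, with -1.30, 0.67 and 0.51 log2 CPM in treated libraries, against 1.57, 1.96 and 1.57 log2 CPM in untreated libraries (log2 fold change -1.74 ± 0.53, adjusted p = 0.0354 by limma). The lowest of these values rested on 2 reads. Its log2 fold change was -1.11 without panobinostat library 1, and the call was lost without untreated libraries 1, 2 or 3 (-1.80 to -1.61).

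The potassium and chloride cotransporter gene Slc12a7 rose by 0.52 ± 0.13. The phosphate importer gene Slc20a1 stood at -0.18 ± 0.089 (adjusted p = 0.151) and the sodium, potassium and chloride cotransporter gene Slc12a2 at -0.24 ± 0.23. Slc8b1, a sodium and calcium exchanger of mitochondria, stood at 1.18 ± 0.42 (adjusted p = 0.0564). The call of Slc12a7 was lost without panobinostat library 3 or untreated libraries 2 or 3 (0.41 to 0.50). Without untreated library 2 this group of ion carriers had 3 calls in place of 6.

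Of the carboxylate, organic ion, fatty acid and acetyl-CoA carriers 3 rose and 2 fell of 13 tested. These were 23.1% and 15.4%, against 19.2% and 19.0% of all tested genes. Slc16a5, a member of the monocarboxylate carrier family, fell, with 2.77, 3.33 and 3.23 log2 CPM in panobinostat-treated cells and 4.70, 4.66 and 4.59 log2 CPM in untreated cells (log2 fold change -1.54 ± 0.17, adjusted p = 0.000745 by limma). Its relative Slc16a6 fell less, with 5.72, 6.01 and 5.85 log2 CPM with panobinostat, against 6.59, 6.53 and 6.41 log2 CPM in untreated cells (log2 fold change -0.65 ± 0.1, adjusted p = 0.00254 by limma), and its end overlaps Amz2 on the opposite strand. Slc33a1, which brings acetyl-CoA into the endoplasmic reticulum, rose, with 3.33, 3.70 and 3.85 log2 CPM in treated libraries, against 2.65, 1.9 and 2.31 log2 CPM in untreated libraries (log2 fold change 1.34 ± 0.24, adjusted p = 0.00426 by limma). Slc17a9, the carrier that loads ATP into vesicles, measured 3.17, 2.94 and 2.80 log2 CPM in panobinostat-treated cells and 1.82, 1.25 and 2.11 log2 CPM in untreated cells (log2 fold change 1.24 ± 0.26, adjusted p = 0.00803 by limma). Slc10a7 rose by 0.43 ± 0.13, and this call was lost without panobinostat libraries 1, 2 or 3 or untreated libraries 2 or 3 (0.39 to 0.47).

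Of 3 amine, taurine and inositol carriers tested, the taurine carrier gene Slc6a6 rose, with 5.85, 6.15 and 6.18 log2 CPM with panobinostat, against 5.39, 5.15 and 5.10 log2 CPM in untreated cells (log2 fold change 0.85 ± 0.13, adjusted p = 0.00224 by limma). The inositol carrier gene Slc5a3 (-0.16 ± 0.15) and Slc6a13 (-0.36 ± 0.31) did not pass. Among the 6 rows that encode no carrier, Slc9a3r1, a scaffold protein that anchors exchangers to the cytoskeleton, rose, with 5.34, 5.51 and 5.70 log2 CPM in treated libraries, against 4.44, 4.30 and 4.41 log2 CPM in untreated libraries (log2 fold change 1.13 ± 0.12, adjusted p = 0.00066 by limma). The others were Slc4a1ap (0.039 ± 0.10), Slc7a6os (0.15 ± 0.11), Slc2a4rg-ps (0.23 ± 0.13), Slc22a13b-ps (0.52 ± 0.26) and Slc36a3os (-0.78 ± 0.35), and none of these 5 passed (limma, smallest adjusted p 0.119). Reads of genes named as opposite strand or pseudogene may be shared with their partner gene.

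**Figure D4:**
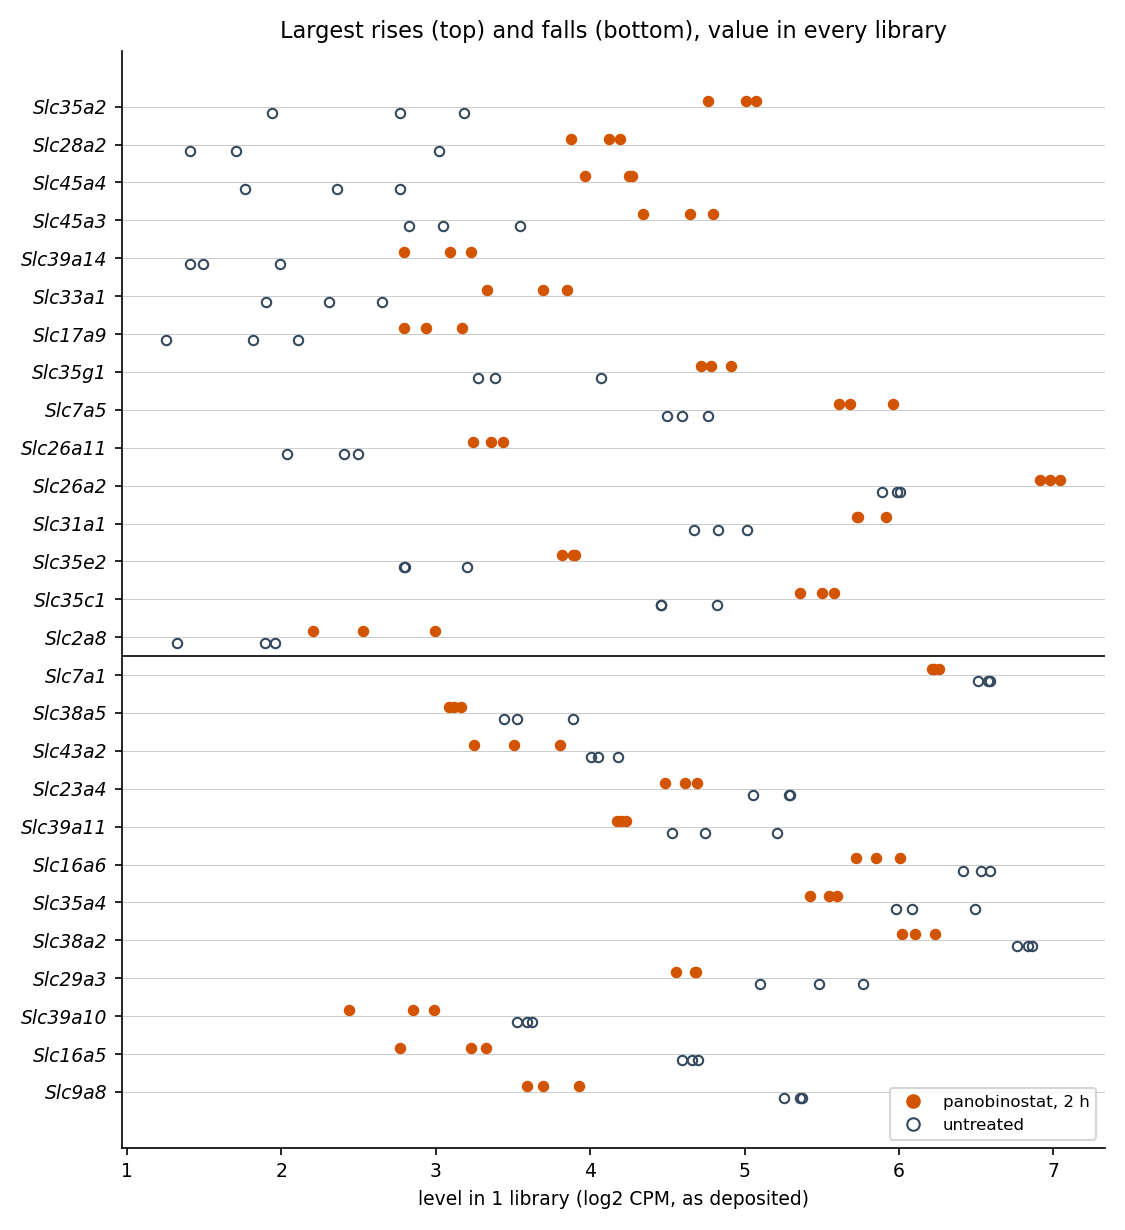
The level of each library (log2 CPM, horizontal axis) is plotted for the members with the largest rises (above the line) and falls (below it) among those past the threshold, with a mean of at least 2 log2 CPM and no overlap between groups. Filled points are panobinostat-treated and open points untreated libraries, and the untreated libraries of Slc28a2 and Slc35a2 are the most widely spread, with SDs of 0.86 and 0.64.

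By the membrane in which the carriers are known to act, assigned by hand from textbook knowledge for 95 members, the endosome and lysosome had 7 rises and 1 fall of 16 tested, and the endoplasmic reticulum and Golgi 7 rises and 1 fall of 19. The plasma membrane had 14 rises and 10 falls of 53 tested, and its median log2 fold change was 0.0275, against 0.325 for the endosome and lysosome and 0.280 for the endoplasmic reticulum and Golgi. Set against 19.2% rises and 19.0% falls among all tested genes, 43.8% of the endosomal and lysosomal, 36.8% of the endoplasmic reticulum and Golgi and 26.4% of the plasma membrane members rose, and 6.25%, 5.26% and 18.9% of them fell, in the same order. The plasma membrane's share of falls was thus near that of all genes, and the difference between compartments was not tested. The endosomal and lysosomal rises included Slc38a9, Slc15a4, Slc26a11, Slc30a4, Slc2a8 and Slc11a2, and its fall was that of Slc29a3. The members that rose had a median gene length of 30911 bases and those that fell 22744 bases, against 21991 and 19320 bases for all genes that rose and fell.

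Of the 55 called members, 32 kept their call in all 6 fits that left out a library, 22 rises and 10 falls. The 11 members not tested for their low level included Slc2a6, Slc4a8, Slc4a11, Slc6a8, Slc7a2, Slc7a4, Slc20a2, Slc22a3, Slc26a1 and Slc35e4. Slc22a3 gave -1.95, -1.62 and -1.71 log2 CPM in panobinostat-treated cells and 0.017, 1.04 and 1.24 log2 CPM in untreated cells, the treated values resting on 2 reads each.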

How the data were processed

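RNA was isolated with the RNeasy Mini Kit and QuantSeq 3' mRNA libraries were made from 100 ng of total RNA, per the labels' protocols. The submitters' processing notes name HISAT2 2.1.0, Subread 1.5.0 with featureCounts, cutadapt 1.9, limma and the build mm10. Which annotation, strand setting and filters they used is not given in the sources used here. Log2 values for 13185 genes in 6 libraries were deposited by the authors; that they are log2 CPM made nearly equal in distribution between libraries was inferred from the values (powers of 2 sum to 994114 to 994182, library medians 4.01 to 4.02). A shift of all genes in 1 direction therefore could not be seen. Columns were matched to samples by the number after the letter S in the titles, and library numbers 1 to 3 come from the column names, where the titles give every library the number 1.

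Rows with a mean of at least 0 log2 CPM were tested (12554, with 631 left out) with limma 3.58.1 in R 4.3.3 (eBayes with a mean-variance trend), Benjamini-Hochberg adjusted over all of them, at a threshold of 0.05. No pseudocount was added. Depth was estimated at 200 steps between tied low values (6.03 to 7.76 reads per CPM) and covers counting error only. The script was tested on simulated data. Python 3.11.15, pandas 2.3.3 and matplotlib 3.10.9 read tables and drew figures.

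Members, substrate groups and lists were chosen with earlier results of these data known. Named genes were the up to 15 largest rises and falls among members past the threshold with a mean of at least 2 log2 CPM and no overlap, in each substrate group up to 4 with the smallest adjusted p, the most highly expressed, the smallest p in each direction and 19 fixed genes, the rows that encode no carrier, and up to 3 of each other list. This gave 64 members, of which 40 passed. Members and list genes named outside this rule, including 15 of the called members, were chosen after their values were seen. Sequences came from RefSeq and gene positions from GENCODE release M21. Results for a few members are not reported here.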

Additional observations from a re-analysis of the deposited data

How the results depend on the processing

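With adjusted p below 0.01 the counts were 1240 rises and 1273 falls of all genes, 20 rises and 9 falls of solute carriers, and 3 calls each of amino acid, ion, nucleoside and vitamin, sugar and zinc carriers. At that threshold 6 pump, 2 metal buffer, 5 ABC and 4 Mfsd or Slco genes were called. With array weights the solute carriers had 26 falls, and 12 SLC35 and 8 carboxylate carriers were called. Leaving out each library in turn gave 1587 (without panobinostat library 3) to 2664 rises and 1636 to 2562 falls of all genes, and 27 to 43 rises and 11 to 18 falls of solute carriers. Calls then ran from 5 to 13 for amino acid, 4 to 7 for carboxylate, 3 to 7 for ion, 4 to 8 for nucleoside and vitamin, 6 to 9 for SLC35, 2 to 4 for iron, copper and magnesium, 3 to 6 for sugar and 5 to 8 for zinc carriers. For the other lists they ran from 8 to 14 for pumps, 4 to 8 for metal buffers, 8 to 13 for ABC and 5 to 8 for Mfsd or Slco genes. The cause of these shifts was not tested, and each of these fits also had fewer libraries. Other filters, scalings, spread models and a pseudocount of 1 kept every solute carrier count within 1.5 times of the reported one.

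Among 1496 values of named genes under the alternatives, 1398 kept their side of the threshold, 75 lost their call and 23 gained one. The stricter threshold of 0.01 was among these alternatives. In 0 values did the sign change where either fit called the gene. Sign changes of genes called in neither fit were not counted, and Slc1a4 ran from -0.29 to 0.21 with a library left out. Slc37a3 lost its call with no filter (adjusted p = 0.0508), without a trend (0.0766) and with array weights (0.0706), Slc1a5 without a trend (0.0823) and with array weights (0.0524), and Slc2a8 without a trend (0.0518). Without a trend Slc26a6 (0.0505), Slc30a5 (0.0558) and Slc30a6 (0.0644) lost theirs too. Over all members, array weights gained 13 rises and 9 falls and lost 2 rises. Among these Slc35a1 (adjusted p = 0.0124), Slc35d1 (0.0273), Slc37a4 (0.0377), Slc38a1 (0.0245), Slc40a1 (0.0238) and Slc43a1 (0.0208) passed.

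Same-numbered treated and untreated libraries deviated with correlations of -0.0444, 0.104 and -0.0108, and 1 of the 3 treated libraries correlated best with its own number. No pairing by number was seen, but with 3 libraries in each group a weak pairing could have been missed. With the library number as a replicate block, 35 solute carriers rose and 13 fell, against 2079 and 2069 of all genes, since 5 rises (Slc37a3, Slc1a5, Slc10a7, Slc30a6 and Slc30a7) and 4 falls (Slc29a2, Slc38a5, Slc39a4 and Slc43a2) lost their calls and 2 rises (Slc10a3 and Slc22a5) gained one. Low members limit the precision, since 1 CPM corresponds to 6.03 to 7.76 reads.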

Other observations

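Other transport proteins, with some of their relatives, were counted in the same fit. Among subunits of ATP-driven pumps 11 rose (37.9%, against 19.2% of all tested genes) and 2 fell (6.9%, against 19.0%) of 29 tested. The median log2 fold change was 0.260. The pump list was not limited to ion pumps, and its rises included Atp13a2 (0.52 ± 0.12) and Atp13a3 (0.51 ± 0.096). The vacuolar proton pump subunit genes Atp6v1a (1.22 ± 0.086), Atp6v1e1 (0.53 ± 0.084) and Atp6v1h (0.63 ± 0.16) rose and Atp6v1f fell (-0.31 ± 0.069); the calcium pump gene Atp2a3, of the endoplasmic reticulum, fell (-0.58 ± 0.076). Values are log2 fold changes ± SE (limma, adjusted p below 0.05 where a gene rose or fell). Without panobinostat library 3 the pump list had 8 calls in place of 13.

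Members of the ABC family gave 5 rises (17.9%, against 19.2% of all tested genes) and 8 falls (28.6%, against 19.0%) of 28 tested. Their median was -0.155. Abce1, Abcf1, Abcf2 and Abcf3, counted among the 28, have no membrane domain and are not transporters. The rises were those of Abcf1 (0.34 ± 0.081), Abcf2 (0.47 ± 0.085), Abcf3 (0.52 ± 0.18), Abca7 (0.56 ± 0.18) and Abcg1 (1.39 ± 0.32). The drug efflux pump genes Abcb1a and Abcb1b fell (-1.55 ± 0.22 and -1.05 ± 0.21), as did Abcb9 (-0.93 ± 0.11) and Abcb4 (-0.70 ± 0.12). Abcb1a and Abcb1b are closely related genes, and how reads similar to both were assigned is not known. The list had 8 calls in place of 13 without panobinostat library 1, panobinostat library 3 or untreated library 3. Among the facilitators named Mfsd or Slco 7 rose (41.2%) and 2 fell (11.8%) of 17 tested, with a median of 0.498. Mfsd7b (1.18 ± 0.14) and Mfsd1 (0.72 ± 0.12) rose and Mfsd6 (-1.10 ± 0.12) fell, and without panobinostat library 2 this list had 5 calls in place of 9.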
